A study of Mus musculus with 6 samples.

Results

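The genes followed here were 8, namely 6 interferon-linked ones (Parp9, Parp10, Parp11, Parp12, Parp14 and Dtx3l) and 2 of DNA repair (Parp1 and Parp2), out of 40213 gene symbols in the deposited counts. They were taken by symbol, and all 8 were present and passed the filter on low counts with 12893 genes in all. The libraries came from bone marrow-derived macrophages of C57BL/6 mice, which are marrow precursors grown with macrophage colony-stimulating factor. In 3 libraries (MNP) the cells had received 50 µg of polystyrene micro- and nanoplastics for 24 h, and in 3 control libraries the cells were plated alike without particles. All 6 share strain, culture and factor, and no engineered allele is named. The labels leave out particle size, the volume behind the dose, the age and number of mice, and whether replicates were separate cultures, so p-values measure only the spread between these samples.

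PARP enzymes transfer ADP-ribose from NAD+ to proteins. PARP1 and PARP2 build long chains of it at DNA breaks, where the chains recruit repair factors, whereas the interferon-linked members add single units or, for PARP9, act with a partner. Interferons bind receptors whose kinases activate transcription factors of the STAT family, and these switch on genes that carry an interferon-stimulated response element (ISRE) or a gamma-activated site (GAS). In macrophages the interferon-linked PARP genes are known as part of this antiviral programme.

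Promoters are shown for 3 of the 8 genes, to set a start with both interferon motifs beside a start of a lower gene with neither and a start of a repair gene. They run from 250 bases before to 50 bases after the annotated start, on the gene's strand, from RefSeq on build GRCm38.p6, which is older than the GRCm39 build named for the counts. The table held 6 starts of 5 of the 8 genes. Parp9, Parp10 and Parp14 had none there, so their promoters were not searched. Capitals mark matches to the ISRE letters (GAAA, any 2 bases, GAAA), the GAS letters TTCNNNGAA and the GC-box letters GGGCGG, searched on both strands.
Parp11, the first of 2 starts (chr6:127446590-127446889, plus strand): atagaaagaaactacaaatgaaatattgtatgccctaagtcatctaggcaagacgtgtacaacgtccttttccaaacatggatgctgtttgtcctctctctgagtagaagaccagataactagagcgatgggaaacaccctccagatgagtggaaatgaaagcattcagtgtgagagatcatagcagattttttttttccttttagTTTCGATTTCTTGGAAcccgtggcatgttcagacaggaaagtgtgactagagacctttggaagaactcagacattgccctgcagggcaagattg
Dtx3l (chr16:35938978-35939277, minus strand): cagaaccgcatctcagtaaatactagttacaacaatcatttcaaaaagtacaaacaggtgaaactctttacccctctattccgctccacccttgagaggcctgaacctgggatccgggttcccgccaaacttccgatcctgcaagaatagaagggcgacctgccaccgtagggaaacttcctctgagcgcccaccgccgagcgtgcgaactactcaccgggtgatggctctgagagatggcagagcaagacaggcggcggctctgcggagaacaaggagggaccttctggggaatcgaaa
Parp1 (chr1:180568641-180568940, plus strand): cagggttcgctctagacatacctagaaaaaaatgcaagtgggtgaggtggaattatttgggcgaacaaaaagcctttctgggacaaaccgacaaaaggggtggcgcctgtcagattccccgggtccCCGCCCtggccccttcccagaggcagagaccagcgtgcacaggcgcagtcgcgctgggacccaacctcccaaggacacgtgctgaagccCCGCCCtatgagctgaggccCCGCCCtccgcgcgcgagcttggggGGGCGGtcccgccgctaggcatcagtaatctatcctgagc
In the Parp11 window the ISRE match, TTTCGATTTC on the gene's strand, lay 44 to 35 bases before the start, and the GAS match, TTCTTGGAA, lay 37 to 29 bases before it, so the matches overlap. The Dtx3l window held none of the 3 motifs. In the Parp1 window 4 GC boxes were found and no interferon motif. Of all 32851 promoter windows in the table, 3.44% held the ISRE letters, 8.30% the GAS letters and 35.7% the GC box. The Parp12 window (GC content 73.7%) held no match, and those of Parp2 and of the other start of Parp11 held 1 GC box each. A match is a run of letters and not a measured binding site.

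Library totals ran from 21283713 to 22700499 counts in MNP and from 20262859 to 23042146 in control libraries. Values are counts normalised to library size (CPM) with TMM factors, which correct for differences in composition, and 1 count was worth 0.0424 to 0.0483 CPM. Counts of the 8 genes lay between 283 and 8909 per library, so that counting alone gives a coefficient of variation of 5.94% to 1.06%. A gene was called changed at a Benjamini-Hochberg adjusted p under 0.05 in edgeR's quasi-likelihood test over all tested genes, and ± after a log2 fold change is its standard error (SE). By this rule 2250 genes were called, 1174 higher and 1076 lower in MNP, and 757 higher and 1941 lower when libraries were scaled by their totals alone. MNP 1 was the library richest in Gm26917, a noncoding RNA, at 1.02% of counts, and 0.251% to 0.444% was seen elsewhere. The 5 interferon-linked genes called below were also called without MNP 1. Genes with at least 1 count numbered 18672, 18655 and 18240 in MNP 1 to 3, against 24062, 20935 and 20222 in control 1 to 3. Every control library thus held more detected genes than any MNP library, with control 1 highest, and the part of this in the results was not tested.

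Of the 6 interferon-linked genes, 5 fell in MNP macrophages and Parp10 missed the threshold, while neither DNA-repair gene was called (edgeR unadjusted p = 0.397 for Parp1 and 0.105 for Parp2, DESeq2 adjusted p = 0.671 and 0.378). Of all tested genes 17.5% were called in either direction and 8.35% were called lower. Parp14, Parp9 and Dtx3l had the larger decreases, 1.95-fold, 1.82-fold and 1.70-fold, and Parp12 and Parp11 the smaller ones, 1.41-fold and 1.34-fold. The median log2 fold change of the 6 was -0.63, against -0.011 over all tested genes. In all 6 the 3 MNP values lay below the 3 control values, a pattern that 17.4% of all tested genes also showed.

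**Figure D1:**
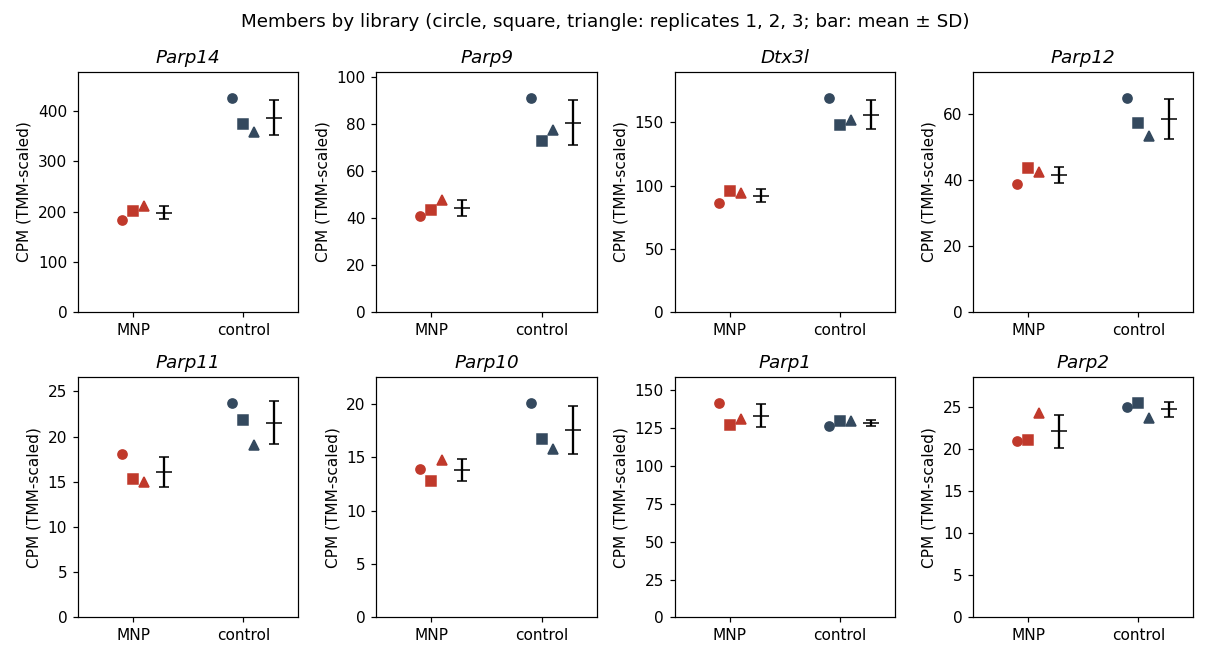
CPM scaled by TMM factors (vertical axis, from 0) of each of the 8 genes in the 3 MNP libraries (left) and the 3 control libraries (right), with mean ± SD over 3 beside the points and replicates 1 to 3 as circle, square and triangle. The groups are apart for the 6 interferon-linked genes and overlap for Parp1 and Parp2.

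Parp9 and Dtx3l encode partners. DTX3L is an E3 ubiquitin ligase of the deltex family, and PARP9, which has little transferase activity on its own, binds ADP-ribose through its macrodomains and works in a complex with DTX3L. Parp9 stood at 41.0, 43.5 and 47.7 CPM in MNP 1 to 3, against 91.2, 72.9 and 77.3 CPM in control 1 to 3. The highest MNP value was well below the lowest control value, and control 1 was the highest library. Its log2 fold change was -0.87 ± 0.09 (means 44.1 ± 3.42 and 80.4 ± 9.55 CPM in MNP and control, SD, n = 3 each, edgeR adjusted p = 1.59e-05).

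Dtx3l was measured at 85.9, 96.0 and 93.7 CPM in MNP 1 to 3, against 169, 147 and 151 CPM in control 1 to 3. Here too the groups were apart, with MNP 1 lowest and control 1 highest. It fell by 0.76 ± 0.07 on the log2 scale (means 91.9 ± 5.30 and 156 ± 11.7 CPM in MNP and control, edgeR adjusted p = 3.46e-06).

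The proportion of the partners within a library was also compared. There were 0.477, 0.453 and 0.510 Parp9 counts per Dtx3l count in MNP 1 to 3, against 0.538, 0.494 and 0.511 in control 1 to 3. The groups overlapped, and the mean log2 ratio differed by -0.10 (two-sided exact permutation test, p = 0.20, where 3 against 3 can give no less than 0.10). The 2 genes lie head to head on chromosome 16, and exons of their 5′ ends overlap on opposite strands in the GENCODE M21 annotation of the older build GRCm38. Since no strand setting is stated, reads from the shared stretch could be of either gene.

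Parp14 encodes a large mono-ADP-ribosyltransferase with macrodomains, known as a co-factor of STAT6 in interleukin 4 signalling. It had 184, 200 and 210 CPM in MNP 1 to 3, against 427, 375 and 359 CPM in control 1 to 3. Each MNP library was thus far below each control. Its log2 fold change was -0.97 ± 0.07, a level 48.8% below control (means 198 ± 13.3 and 387 ± 35.4 CPM in MNP and control, edgeR adjusted p = 8.04e-07). By GENCODE M21 its exons overlap those of Gm49730, a same-strand gene not used here.

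Parp12 encodes a zinc-finger mono-ADP-ribosyltransferase that restricts several RNA viruses. It was at 38.7, 43.4 and 42.3 CPM in MNP 1 to 3, against 64.8, 57.1 and 53.1 CPM in control 1 to 3. The gap between the groups was narrower than for Parp14. It fell by 0.49 ± 0.09 on the log2 scale (means 41.5 ± 2.50 and 58.4 ± 5.97 CPM in MNP and control, edgeR adjusted p = 0.00129).

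Parp11 encodes a mono-ADP-ribosyltransferase linked to turnover of the type I interferon receptor. The first of its 2 listed starts carries the ISRE and GAS letters shown above, and the other carries neither. Its level was 18.0, 15.3 and 15.0 CPM in MNP 1 to 3, against 23.7, 21.8 and 19.0 CPM in control 1 to 3. MNP 1 came close to control 3, without overlap. Its log2 fold change was -0.42 ± 0.11 (edgeR adjusted p = 0.0207). The call was lost in 4 of the 6 fits that left out a library: without MNP 2 (edgeR adjusted p = 0.101), MNP 3 (0.106), control 1 (0.0684) or control 2 (0.0818).

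Parp10, a mono-ADP-ribosyltransferase with ubiquitin-binding motifs, did not pass. It had 13.9, 12.8 and 14.8 CPM in MNP 1 to 3, against 20.1, 16.7 and 15.8 CPM in control 1 to 3. The groups did not overlap, but MNP 3 and control 3 were near each other. Its log2 fold change was -0.34 ± 0.12 (95% interval -0.59 to -0.09, edgeR adjusted p = 0.0602), and it was called with library totals alone (-0.43, edgeR adjusted p = 0.0183). In GENCODE M21 an exon of Plec, the gene of a cytoskeletal linker, overlaps Parp10 on the same strand, and Plec was called 1.48-fold higher (763 ± 25.1 and 516 ± 38.7 CPM in MNP and control, edgeR adjusted p = 2.88e-05). How reads of the shared stretch were split between them is not stated.

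Parp1, the main enzyme that makes poly-ADP-ribose at DNA breaks, stood at 142, 127 and 131 CPM in MNP 1 to 3, against 126, 130 and 130 CPM in control 1 to 3. The ranges overlapped, with MNP 1 the highest library. Its log2 fold change was 0.05 ± 0.06 (95% interval -0.07 to 0.17, edgeR adjusted p = 0.605), and the sign turned with library totals alone (-0.039). Parp2, the related enzyme that shares part of this role, had 20.9, 21.0 and 24.3 CPM in MNP 1 to 3, against 25.0, 25.5 and 23.7 CPM in control 1 to 3. MNP 3 lay above control 3, so the groups overlapped. The log2 fold change of Parp2 was -0.16 ± 0.09 (95% interval -0.36 to 0.04, edgeR adjusted p = 0.268). These intervals leave room for small changes and do not show that either level was equal in the groups.

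**Figure D2:**
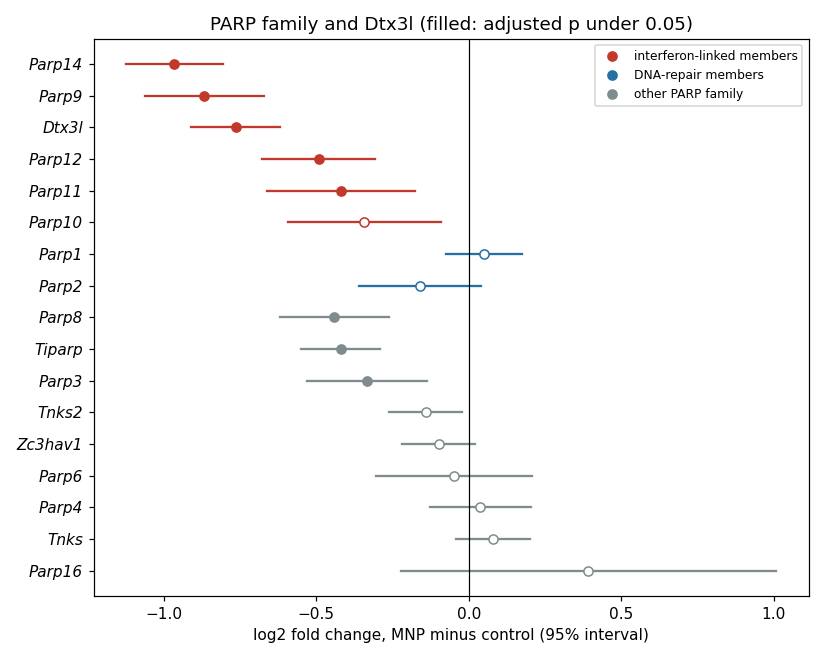
Log2 fold change of MNP minus control (horizontal axis) with 95% interval from edgeR for the 6 interferon-linked genes (red), Parp1 and Parp2 (blue) and 9 other PARP family genes (grey), filled where the adjusted p is under 0.05. The intervals of Parp14, Parp9 and Dtx3l lie lowest, and those of Parp1 and Parp2 include 0.

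A ratio to Parp1 within each library needs no scaling, and 7 such ratios were computed, an alternative chosen after seeing the data. Parp14 had 1.30, 1.58 and 1.61 counts per Parp1 count in MNP 1 to 3, against 3.38, 2.89 and 2.77 in control 1 to 3. Thus Parp14 stayed the more counted gene in every library, by a smaller margin in MNP. Parp9 reached 0.289, 0.343 and 0.365 counts per Parp1 count in MNP 1 to 3, against 0.722, 0.562 and 0.596 in control 1 to 3. Parp10, the least moved, reached 0.0984, 0.101 and 0.113 in MNP 1 to 3, against 0.159, 0.129 and 0.122 in control 1 to 3. For each of the 6 interferon-linked genes the ratio was lower in all MNP libraries than in any control, with mean log2 differences between -1.01 (Parp14) and -0.39 (Parp10). Each reached p = 0.10 in a two-sided exact permutation test, the smallest that 3 against 3 can give, so none could pass. The same 6 genes were already apart in CPM, as were 17.4% of all tested genes with MNP lower, so the ratios are no separate evidence. The share of all genes with such a ratio to Parp1 was not computed. The Parp2 to Parp1 ratio overlapped between groups (log2 difference -0.21, exact permutation p = 0.20).

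**Figure D3:**
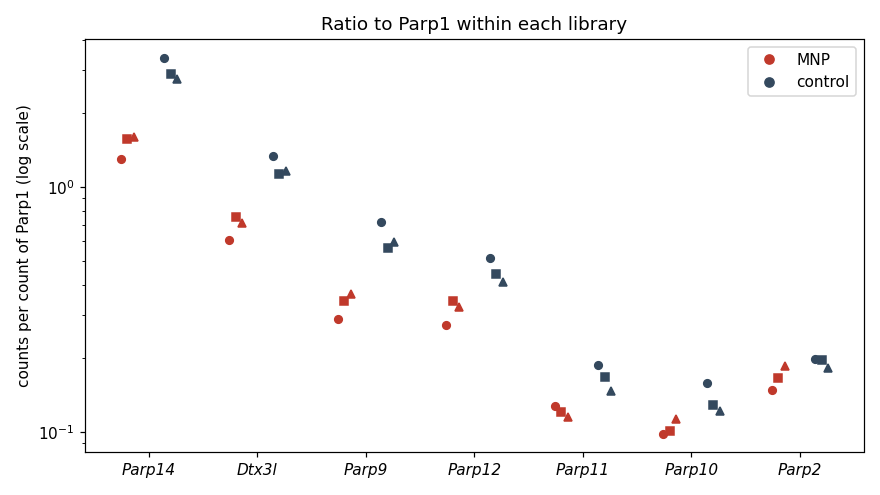
Counts of each gene per Parp1 count in the same library (vertical log axis) for 3 MNP (red, left) and 3 control libraries (dark, right), replicates 1 to 3 as circle, square and triangle. The groups are apart for the 6 interferon-linked genes and overlap for Parp2.

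Levels of different genes were compared as CPM per kilobase of the longest coding transcript in GENCODE M21. In MNP the order was Parp1 (34.4 ± 1.97), Parp14 (26.7 ± 1.80), Dtx3l (17.3 ± 0.998), Parp12 (12.8 ± 0.772), Parp9 (12.4 ± 0.964), Parp2 (11.7 ± 1.02), Parp11 (4.30 ± 0.446) and Parp10 (4.10 ± 0.299), in CPM per kilobase as mean ± SD of 3. There the ranges of neighbours overlapped for Parp12 and Parp9, Parp9 and Parp2, and Parp11 and Parp10. In control the order was Parp14 (52.2 ± 4.78), Parp1 (33.2 ± 0.498), Dtx3l (29.4 ± 2.21), Parp9 (22.7 ± 2.69), Parp12 (18.1 ± 1.85), Parp2 (13.0 ± 0.493), Parp11 (5.75 ± 0.628) and Parp10 (5.21 ± 0.671), where among neighbours the ranges of Parp11 and Parp10 overlapped. Parp14 was thus the highest of the 8 in control and below Parp1 in MNP. With merged exons of all transcripts as the length, chosen after seeing the data, Parp14 again led in control (41.6 ± 3.81) and Parp1 in MNP (25.2 ± 1.44). Parp10 then stood above Parp11 in both groups, and Dtx3l (27.3 ± 2.05) above Parp1 (24.3 ± 0.365) in control.

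**Figure D4:**
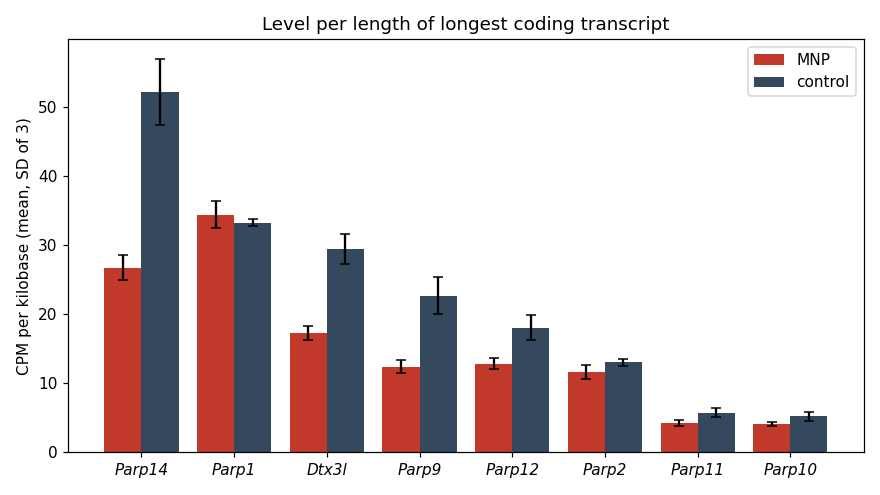
Level per length (CPM per kilobase of longest coding transcript, vertical axis from 0) of the 8 genes, mean and SD of 3 MNP (red, left) and 3 control libraries (dark, right). Parp14 leads in control at 52.2, and Parp1 leads in MNP at 34.4.

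Replicates of a group differed little in these genes, with a coefficient of variation from 1.50% (Parp1 in control) to 12.9% (Parp10 in control). Control 1 was the highest control for all 6 interferon-linked genes. Without it the log2 fold change was -0.88 for Parp14, -0.76 for Parp9, -0.69 for Dtx3l and -0.40 for Parp12, and these 4 were still called. Once group means were removed, log2 CPM of Parp9, Parp12, Parp14 and Dtx3l varied together over the 6 libraries, with Pearson r from 0.76 (Parp9 and Parp12) to 0.94 (Parp12 and Parp14). For Parp11 against these 4 genes r lay between -0.012 and 0.27. For Parp10 against the same 4 genes it lay between 0.52 (Dtx3l) and 0.78 (Parp9), and for Parp1 between -0.80 (Dtx3l) and -0.53 (Parp9). With 3 libraries a group and shared scaling, these r are a description only.

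By the same measure, genes outside the 8 were ranked by Pearson r of log2 CPM with the mean standardised profile of the 6 interferon-linked genes, over 6 libraries that share the group difference. Of 9534 genes whose mean reached 5 CPM, the closest were Oas3 (r = 0.999), Dcun1d5 (0.998), Nadk (0.997), Vcpip1 (0.997), Rnf213 (0.996) and Oas1a (0.996), and 306 had an r above 0.95. After group means were removed these r were 0.997, 0.985, 0.965, 0.964, 0.970 and 0.956 in the same order. The genes were picked for the highest r over the same libraries, so high values here were favoured by that choice and are no separate evidence. Oas3 and Oas1a encode oligoadenylate synthetases, Nadk an NAD kinase, and Rnf213 a large ubiquitin ligase. Oas3 had 21.1 ± 1.85 CPM in MNP and 62.0 ± 19.4 CPM in control (2.93-fold lower, edgeR adjusted p = 2.55e-05), and Rnf213 393 ± 5.04 and 839 ± 132 CPM (2.13-fold lower).

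Of the other 9 PARP family genes, 3 fell, 0 rose and 6 were not called by edgeR, with a median log2 fold change of -0.10, and none rose at an unadjusted p under 0.05 or by DESeq2 (0 of 9 by each). The share of all tested genes called lower by edgeR was 8.35%, and 9.11% were called higher. Called lower were Parp8 (36.0 ± 3.31 and 49.0 ± 1.96 CPM in MNP and control, log2 fold change -0.44 ± 0.08), Tiparp, the aryl hydrocarbon receptor target also named PARP7 (63.3 ± 1.67 and 84.6 ± 0.596 CPM, -0.42 ± 0.06) and Parp3, a DNA-break enzyme (-0.33). Zc3hav1, the antiviral zinc-finger protein also named PARP13, was not called at 214 ± 11.1 CPM in MNP and 229 ± 1.62 CPM in control (log2 fold change -0.10 ± 0.06, edgeR adjusted p = 0.261). The tankyrases Tnks and Tnks2 were not called either (0.08 and -0.14).

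Of the other deltex ligases, 3 were tested. Dtx3 was called lower (5.00 ± 0.0283 and 7.38 ± 1.08 CPM in MNP and control, log2 fold change -0.56 ± 0.16), Dtx4 higher (106 ± 2.90 and 90.5 ± 2.44 CPM, 0.23 ± 0.06), and Dtx2 was not called. Of 10 tested genes that remove, break down or bind ADP-ribose, 2 fell and 0 rose by edgeR, with a median of -0.14. At an unadjusted p under 0.05 or by DESeq2, 0 rose. The 2 that fell were Nudt9, an ADP-ribose pyrophosphatase (1.35-fold lower), and Enpp1, an ecto-enzyme (1.32-fold lower). Parg, which trims poly-ADP-ribose chains, was not called. Among 14 repair partners of PARP1 and PARP2, 1 rose (the endonuclease Apex1, 1.25-fold), 1 fell (DNA polymerase beta, Polb, 1.29-fold lower) and 12 were not called, with a median of -0.06. Of 12 tested genes of NAD supply and use, 1 rose (Nampt, of NAD salvage, 1.15-fold), 1 fell (the deacetylase Sirt2, 1.16-fold lower), and the median was 0.07. Over all tested genes 9.11% were called higher and 8.35% lower.

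Upstream of the interferon-linked PARP genes, ligand transcripts were scarce. The 13 interferon genes on the list held 0, 0 and 1 counts in all in MNP 1 to 3, against 12, 4 and 4 counts in control 1 to 3. Ifnb1 had no count in any MNP library and 1 count in control 1, so its level could not be compared at this depth, where 3 counts are 0.127 to 0.145 CPM. Of 5 tested receptor genes, 1 fell, Ifngr1 of the interferon gamma receptor (log2 fold change -0.23 ± 0.06, edgeR adjusted p = 0.0242), while Ifnar1 (-0.14) and Ifnar2 (-0.07) were not called. Among all tested genes 8.35% were called lower.

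Of 11 tested genes of signal transduction downstream of these receptors, 7 fell and 0 rose by edgeR, with a median log2 fold change of -0.70. At an unadjusted p under 0.05 or by DESeq2, 0 rose. Over all tested genes 8.35% were called lower. Stat2, a transcription factor, and its partner Irf9 fell (log2 fold changes -0.70 ± 0.09 and -0.61 ± 0.09), by amounts between those of Parp12 and Parp9. Irf7, which amplifies interferon production, fell more (8.66 ± 0.789 and 30.0 ± 6.47 CPM in MNP and control, -1.79 ± 0.15), as did Irf1 (-1.04 ± 0.09) and Usp18, a brake on the receptor (-1.46 ± 0.16). Of the kinases on the list, Jak2 was called lower (-0.27 ± 0.06, edgeR adjusted p = 0.00643). Tyk2 (-0.25, edgeR adjusted p = 0.0757) and Jak1 (-0.10) were not called, nor was Irf8 (-0.09). Whether these changes preceded those of the PARP genes was not tested.

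**Figure D5:**
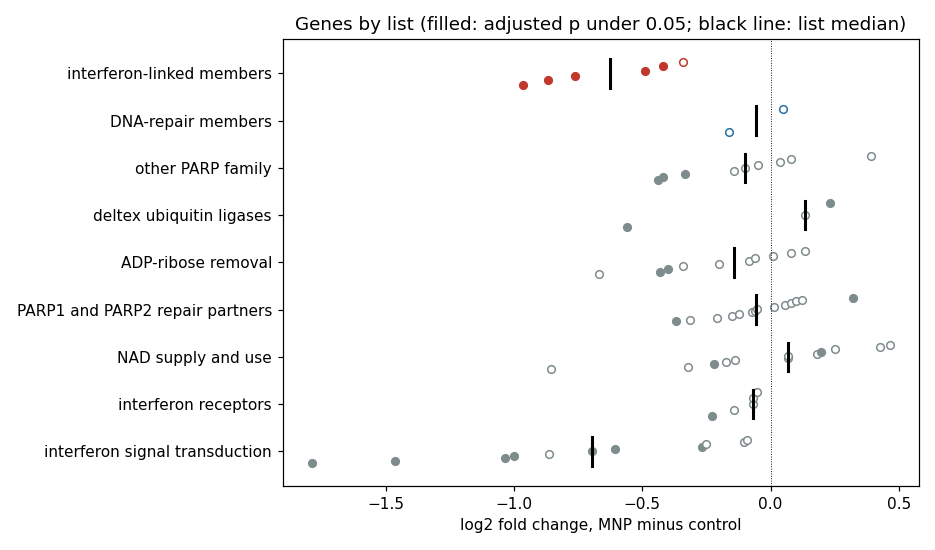
Log2 fold change of MNP minus control (horizontal axis) of each tested gene in 9 lists, filled where the edgeR adjusted p is under 0.05, with the list median as a black line. The medians are -0.63 for the interferon-linked genes and -0.70 for signal transduction, and lie between -0.14 and 0.14 for the other 7 lists.

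Genes beside the members were described too. Within 100 kb of an interferon-linked member, by the gene order of GRCm38.p6, 15 other genes were tested, of which 2 rose, 0 fell and 13 were not called by edgeR (median log2 fold change -0.09). At an unadjusted p under 0.05, 3 were higher and 1 was lower, and DESeq2 called 2 higher and 0 lower. By edgeR 9.11% of all tested genes were called higher and 8.35% lower. Around Parp14, Dtx3l and Parp9, which lie within 1 stretch of chromosome 16, the tested neighbours were Kpna1, an importin called 1.14-fold higher (edgeR adjusted p = 0.0460), and Slc49a4, Hspbap1, Wdr5b, Fam162a and Gm15564, which were not called. Gm15564 was 2.46-fold higher at an unadjusted edgeR p of 0.0351, with overlapping groups (28.7 ± 27.7 and 11.7 ± 6.07 CPM in MNP and control). Beside Parp10, Plec rose and Grina, Smpd5, Oplah, Exosc4 and Gpaa1 were not called. The neighbours Cracr2a of Parp11 and Tbxas1 and Kdm7a of Parp12 did not pass either. Near Parp1 and Parp2, none of Stum, Lin9, Ttc5, Rpph1, Tep1, Gm52116, Gm26782, Klhl33 and Osgep was called by edgeR, and of these 9 genes 1 was lower at an unadjusted p under 0.05 and 0 were called by DESeq2. Within 250 kb of the interferon-linked members 3 of 29 neighbours rose and 0 fell by edgeR. At an unadjusted p under 0.05, 5 of these 29 were higher and 1 was lower, and DESeq2 called 3 higher and 0 lower. Within 250 kb of Parp1 and Parp2, 1 of 17 neighbours rose (Apex1) and 2 fell (Pnp and Pnp2, log2 fold changes -0.42 and -2.03), all 3 of them near Parp2. Pnp and Pnp2 are close paralogs, so how the reads were split between them is uncertain.

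Markers of cell types were also read. The 9 macrophage markers were all expressed, with summed levels of 16995 to 18013 CPM in MNP and 19098 to 19793 CPM in control. Lyz2 made up most of each sum (13152 ± 446 and 14779 ± 339 CPM in MNP and control). By edgeR 4 fell (Mertk, Fcgr1, Adgre1 and Lyz2) and 0 rose, and 5 of the 9 had a negative log2 fold change. Cd68 leaned higher without being called (534 ± 42.9 and 450 ± 51.0 CPM in MNP and control, edgeR adjusted p = 0.0507). At an unadjusted p under 0.05, 1 of the 9 was higher, and DESeq2 called 1 higher. All 4 tested markers of plasmacytoid dendritic cells, a main source of interferon, fell (Bst2, Siglech, Tcf4 and Ccr9), at summed levels of 81.5 to 84.3 CPM in MNP and 108 to 121 CPM in control. Bst2 is itself an interferon-induced gene, Tcf4 is broadly expressed, and Siglech averaged 0.359 ± 0.109 and 1.80 ± 1.04 CPM in MNP and control, while Klk1 and Ly6d were at 0 in all libraries. Of 5 tested dendritic cell markers, 1 fell (Dpp4, summed level of the list 2.34 to 4.25 CPM in MNP and 5.22 to 6.96 CPM in control). Of 7 tested neutrophil markers, 3 fell (Ltf, S100a9 and Mpo, with the list at 114 to 132 CPM in MNP and 162 to 239 CPM in control). S100a8, Elane, Cxcr2 and Camp were not called, and Elane leaned the other way (log2 fold change 0.25 ± 0.31). For comparison, edgeR called 8.35% of all tested genes lower and 9.11% higher.

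Summed T cell markers came to 3.53 to 4.83 CPM in MNP and 15.0 to 19.2 CPM in control, almost wholly from Cd4, which fell, while Cd3e was at 0 in all libraries. B cell markers held 0.586 to 1.15 CPM in MNP and 1.31 to 2.26 CPM in control. Natural killer cell markers held 0.956 to 1.53 CPM in MNP and 1.57 to 1.96 CPM in control, with Ncr1 and Gzma at 0. Among them Klrk1 was called lower by edgeR (adjusted p = 0.0450) but not by DESeq2. It had 9, 8 and 3 counts in MNP 1 to 3, against 22, 22 and 21 in control 1 to 3. Mast cell and basophil markers stood at 17.0 to 20.2 CPM in MNP and 11.2 to 13.0 CPM in control, mostly from Kit, which rose. Erythroid markers (0.225 to 0.483 CPM in MNP, 0.339 to 1.74 CPM in control) and stromal markers (1.10 to 1.30 CPM in MNP, 1.23 to 2.68 CPM in control) were near the counting limit. The part of these cells in the PARP results was not tested, and in bulk RNA fewer cells of a type and less RNA per cell cannot be told apart.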

How the data were processed

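Total RNA of 6 libraries was sequenced after preparation with the CORALL RNA-seq V2 kit, per the labels' protocols. Each library has its own deposited table of whole-number counts by gene symbol. The build GRCm39 and the tools Salmon, STAR, fastp and GATK are listed in the submitters' processing notes, without roles. Not given in the sources used here were the annotation, the strand setting, any rounding of estimates and whether molecular identifiers were used, on which the counts of overlapping genes depend.

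Sample titles gave the groups and replicate numbers. Within groups, pairs of libraries differed with a chi-square per degree of freedom of 6.65 to 17.6, so none was counted as a repeat. The test was that of edgeR 4.0.16 (R 4.3.3), run on the counts (TMM factors, default expression filter, quasi-likelihood F test, Benjamini-Hochberg adjustment over all 12893 tested genes), and SE was taken as the size of the log2 fold change divided by the root of F. The steps were tested on simulated counts. Ratios had 0.5 counts added. Alternatives were other scalings and filters, a replicate block, DESeq2 1.42.0, voom of limma 3.58.1, a threshold of 0.01 and omission of each library. A further alternative omitted Gm26917 and the mitochondrial and structural RNA genes.

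The members and lists were chosen with earlier results of these data known. Named were the 8 members, up to 4 called genes of each list by p, Stat2, Irf9, Irf7 and Ifnb1, tested genes within 100 kb of a member, and the 6 genes closest in profile. One gene that this rule names is not reported here. Other genes were named after their values were seen. Neighbours and transcript lengths came from older-build annotation matched by symbol. Intervals cover the spread between these samples only.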

Additional observations from a re-analysis of the deposited data

How the results depend on the processing

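Parp9, Parp12, Parp14 and Dtx3l were called lower in the 16 alternatives run for each, with log2 fold changes of -0.96 to -0.76, -0.58 to -0.40, -1.05 to -0.88 and -0.85 to -0.69. The count of interferon-linked genes called lower ranged from 4 to 6. Parp10 was called with library totals alone (-0.43, adjusted p = 0.0183) and with the replicate block (-0.34, adjusted p = 0.0496), and was not called in the other 14 (adjusted p up to 0.224). Its values without 1 library ran from -0.41 to -0.23. Parp11 was not called at 0.01 (-0.42), and without 1 library its values ran from -0.50 to -0.34 (adjusted p 0.0169 to 0.106). Parp1 turned to -0.039 with library totals alone (adjusted p = 0.676). Parp2 was not called in any alternative (-0.25 to -0.12). The Parp9 to Dtx3l log2 ratio stayed between -0.15 and -0.06.

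Over all genes 1272 were called at 0.01, and 1471 to 2245 without 1 library (1471 without MNP 2). The block gave 2686 calls, against 2250 without it. Deviations of same-numbered libraries from their group means correlated at 0.087, 0.028 and -0.022, and not every library correlated best with its own number, so the numbers were not taken as pairs. Library totals moved the median of all genes to -0.10. Counts of the members were far above the counting limit, and depth limited the interferon ligands.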
